A study of Mus musculus with 2 samples.

Results

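The miR-23/27/24 genes of the mouse lie in a pair of paralogous clusters, Mir23b, Mir27b and Mir24-1 on chromosome 13 and Mir23a, Mir27a and Mir24-2 on chromosome 8. They were chosen by their GENCODE M21 symbols, which gave 6 of the 2202 microRNA genes in the deposited tables, 3 in each cluster. All 6 had counts in both libraries. The libraries are microRNA sequencing of whole left cerebral cortex from male mice of strain B6CASTF1/J, a cross of C57BL/6J with the wild-derived CAST strain, aged 36 days. There is 1 group of 2 libraries, named here by their animals, animal 4 (biological replicate 2) and animal 3 (biological replicate 1). Both carry the same donor identifier in the labels. The labels name no agent, transgene or deletion, and nothing was compared between conditions, so values are set side by side between the libraries, between the clusters and between the genes of a cluster.

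The members of such a cluster are cut from a shared primary transcript by Drosha and then Dicer. A strand of each hairpin is then loaded into an Argonaute protein, where the seed, bases 2 to 8 of the mature strand, pairs with messenger RNAs. The clusters are well known from endothelium, where miR-27 and miR-23 take part in the growth of vessels, and from mouse muscle, where miR-23a represses ligases of atrophy. In mouse oligodendrocytes miR-23 represses lamin B1 and favours myelination. In human cells miR-24 represses the histone H2AX of the DNA damage response.

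The Mir23b cluster runs over 792 bases at chr13:63300484-63301275 (mm10, plus strand). It lies inside the gene of aminopeptidase O, annotated as 2010111I01Rik and named Aopep in RefSeq, on the same strand, and opposite the DNA repair gene Fancc. Mir23b (ENSMUSG00000065599.2, chr13:63300484-63300557) overlaps no annotated exon and is intronic. Mir27b (ENSMUSG00000065475.2, chr13:63300712-63300784) lies wholly inside an exon of a transcript of that gene marked for nonsense-mediated decay. Mir24-1 (ENSMUSG00000105904.1, chr13:63301208-63301275) likewise lies wholly inside an exon of such a transcript. The Mir23a cluster is more compact, 404 bases at chr8:84208518-84208921 on the plus strand, and lies between protein-coding genes. It holds Mir23a (ENSMUSG00000065611.1, chr8:84208518-84208592), Mir27a (ENSMUSG00000065444.1, chr8:84208672-84208758) and Mir24-2 (ENSMUSG00000065541.1, chr8:84208815-84208921). The last shares 2 bases with the long noncoding RNA Gm26532. The hairpins stand 154 and 423 bases apart in the Mir23b cluster and 79 and 56 bases apart in the Mir23a cluster. A further microRNA gene lies opposite each miR-24 hairpin, Mir3074-1 on chromosome 13 and Mir3074-2 on chromosome 8.

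**Figure D1:**
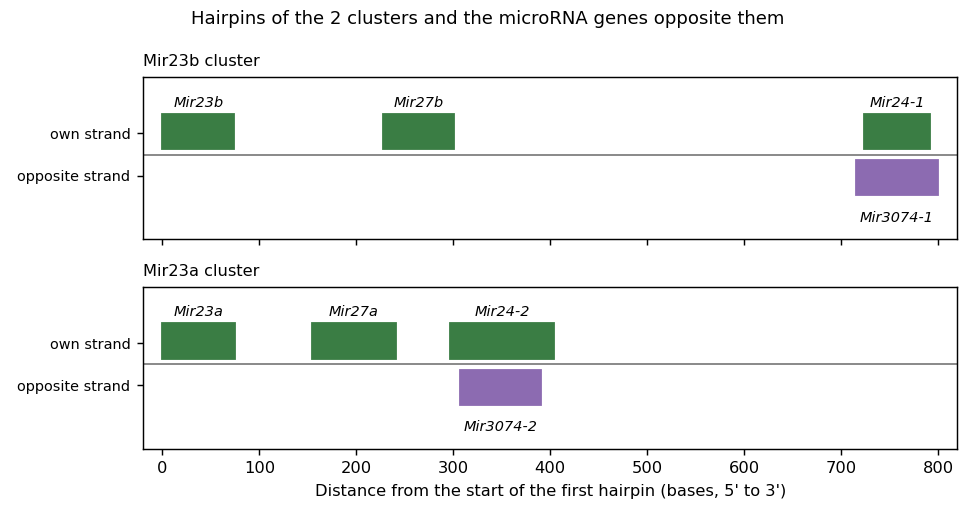
Hairpins of the Mir23b cluster (above) and the Mir23a cluster (below) to scale, by distance in bases from the start of the first hairpin, with genes on the clusters' own strand in green and the Mir3074 genes on the opposite strand in violet. Both clusters keep the same order, and the Mir23b cluster spans 792 bases against 404 for the Mir23a cluster.

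The mature sequences decide which reads can be given to 1 locus, and 3p arms of both clusters are therefore shown first (RefSeq, GRCm38.p6, 5′ to 3′, seed in capitals). All 6 genes matched the RefSeq table by hairpin. The 3p arm of Mir23b is miR-23b-3p.
miR-23a-3p: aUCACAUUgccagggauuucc
miR-27b-3p: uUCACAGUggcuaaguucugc
miR-27a-3p: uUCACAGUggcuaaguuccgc
miR-24-3p: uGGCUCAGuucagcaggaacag

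The miR-27 arms share their seed and their first 18 bases. They differ by 1 substitution, C19U from miR-27a-3p to miR-27b-3p, counted from 1 at the 5′ end. The first 18 of the 21 bases of miR-23a-3p also occur in another microRNA hairpin, so only its last 3 bases tell it apart. The longest stretch that the Mir23b and Mir23a hairpins share is 20 bases, and it is also 20 bases for Mir27b and Mir27a. The miR-24-3p arm is one and the same sequence of 22 bases at Mir24-1 and Mir24-2, whose hairpins share a stretch of 28 bases. A read of that arm fits both loci equally, and reads that map to several places stand in an entry of their own outside the gene counts. The 5p arms of the miR-24 hairpins are shown next because they do differ, after 16 shared bases.
miR-24-1-5p: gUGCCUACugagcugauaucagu
miR-24-2-5p: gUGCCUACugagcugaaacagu

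Counts are reads on a gene's own strand, and CPM are those counts scaled so that all microRNA genes of a library sum to 1000000. The own-strand counts came to 4010274 in animal 4 and 4273791 in animal 3, so that 1 read is worth 0.249 and 0.234 CPM. Multi-mapped reads were a further 39.9% of the reads in animal 4 and 42.8% in animal 3. Intervals are exact (95%; Poisson for CPM, binomial for ratios and shares). They cover counting error only, not variation between animals. Neuronal markers fixed as a list (8 genes) summed to 23437 CPM in animal 4 and 30598 CPM in animal 3. Of them, 7 had counts in both libraries, and Mir124a-2 had none in either. In animal 4, 2 were called higher (Mir138-1 and Mir138-2) and 4 were called lower. The sums of this and the other marker lists leave out multi-mapped reads and hold only reads assigned to 1 gene.

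The miR-23 genes stood far above their neighbours in both clusters. Mir23b had 65268 counts in animal 4 and 88055 in animal 3. That is 16275 CPM (interval 16151 to 16401) in animal 4 and 20603 CPM (20468 to 20740) in animal 3, a mean of 18439 ± 3061 CPM (SD, n = 2). It ranked 11 of 2202 genes in animal 4 and 10 in animal 3. Mir23a had 8160 CPM (8072 to 8249) in animal 4 and 6014 CPM (5941 to 6088) in animal 3, a mean of 7087 ± 1517 CPM (SD, n = 2), at ranks 25 and 32. Mir23b thus lay above Mir23a in both libraries, and their values do not overlap.

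The miR-27 genes, whose 3p arms have the same seed at both loci, came next. Mir27b had 981 CPM (951 to 1012) in animal 4 and 2220 CPM (2175 to 2265) in animal 3, a mean of 1601 ± 876 CPM (SD, n = 2). Mir27a had 93.3 CPM (84.0 to 103) in animal 4 and 190 CPM (177 to 204) in animal 3, a mean of 142 ± 68.6 CPM (SD, n = 2). The Mir27b values lie above both Mir27a values.

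The miR-24 genes were the lowest of each cluster. Mir24-1 had 53 counts, 13.2 CPM (9.90 to 17.3), in animal 4 and 375 counts, 87.7 CPM (79.1 to 97.1), in animal 3. Mir24-2 had 54 counts, 13.5 CPM (10.1 to 17.6), in animal 4 and 284 counts, 66.5 CPM (58.9 to 74.6), in animal 3. Their means, 50.5 ± 52.7 and 40.0 ± 37.5 CPM (SD, n = 2), differ by less than the spread between the libraries, and their values overlap. Since reads of the shared 3p arm fit both loci, these counts give no level of miR-24 as a whole.

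**Figure D2:**
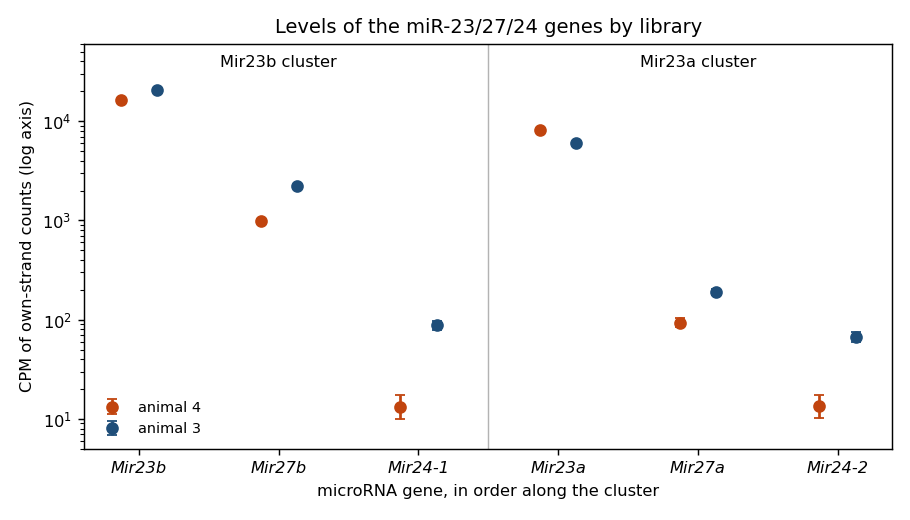
CPM (log axis) of the 6 genes in order along each cluster, with animal 4 in orange to the left of animal 3 in blue and exact 95% Poisson intervals as bars. In both libraries and both clusters the levels step down along the cluster, as from 16275 CPM for Mir23b to 981 CPM for Mir27b and 13.2 CPM for Mir24-1 in animal 4. Reads that fit both miR-24 loci are not counted.

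If each read is a whole short RNA, counts need not scale with hairpin length, but read lengths were not examined. The hairpins do differ in length, which runs between 68 and 107 bases. Per 100 bases of hairpin the mean level was 24918 for Mir23b, 9450 for Mir23a, 2192 for Mir27b, 163 for Mir27a, 74.2 for Mir24-1 and 37.3 for Mir24-2, all in CPM. The order of the 6 genes by mean is the same with and without this scaling. Of neighbours in this order, Mir24-1 and Mir24-2 overlapped between the libraries on both scales. Mir27a and Mir24-1 overlapped only per 100 bases, with 107 CPM for Mir27a and 19.4 CPM for Mir24-1 in animal 4, and 219 and 129 CPM in animal 3.

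Within each cluster nearly all reads counted at its genes came from the first gene. Reads of miR-24-3p fit both loci and are not among them, so these are not shares of all the RNA of a cluster. Mir23b held 94.2% (94.1 to 94.4) of its cluster's counts in animal 4 and 89.9% (89.7 to 90.1) in animal 3. Mir23a held 98.7% (98.6 to 98.8) in animal 4 and 95.9% (95.7 to 96.1) in animal 3. For every 100 Mir23b counts there were 6.03 Mir27b counts (5.84 to 6.23) in animal 4 and 10.8 (10.5 to 11.0) in animal 3. For every 100 Mir23a counts there were 1.14 Mir27a counts (1.03 to 1.27) in animal 4 and 3.16 (2.95 to 3.39) in animal 3. Mir27b was therefore a larger part of its cluster than Mir27a of its own. The ratio of these ratios, Mir23b cluster over Mir23a cluster, was 5.28 (exact 95% interval 4.74 to 5.89) in animal 4 and 3.41 (3.17 to 3.67) in animal 3. For miR-24 it ran the other way, at 0.492 (0.330 to 0.733) in animal 4 and 0.385 (0.329 to 0.452) in animal 3. Mir24-2 was the larger part of its cluster, on the few reads counted at these loci.

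Cluster sums likewise leave out reads of miR-24-3p, which fit both loci. Summed, the Mir23b cluster had 17270 CPM in animal 4 and 22911 CPM in animal 3, a mean of 20090 ± 3989 CPM (SD, n = 2). The Mir23a cluster had 8267 CPM in animal 4 and 6271 CPM in animal 3, a mean of 7269 ± 1411 CPM (SD, n = 2). Both clusters together took 2.55% of the counts at microRNA genes in animal 4 and 2.92% in animal 3. The Mir23b cluster stood above the Mir23a cluster in both libraries, by 2.09-fold (2.06 to 2.12) in animal 4 and 3.65-fold (3.60 to 3.70) in animal 3.

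Gene by gene, the excess of the chromosome 13 locus was smallest for miR-24 and largest for miR-27. Mir23b exceeded Mir23a by 1.99-fold (1.97 to 2.02) in animal 4 and 3.43-fold (3.38 to 3.47) in animal 3. This made Mir23b 66.6% of the counts of both miR-23 genes in animal 4 and 77.4% in animal 3. Mir27b exceeded Mir27a by 10.5-fold (9.46 to 11.7) in animal 4 and 11.7-fold (10.9 to 12.6) in animal 3, which made it 91.3% and 92.1% of the counts of both miR-27 genes. The ratio of Mir24-1 to Mir24-2 was 0.981 (0.659 to 1.46) in animal 4 and 1.32 (1.13 to 1.55) in animal 3. In animal 4 that interval includes equal counts. A read of only the first 18 bases of miR-23a-3p, miR-27a-3p or miR-27b-3p would also fit another hairpin. How many such reads went uncounted was not tested.

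Because the genes of a pair share a library, these ratios can be compared between the libraries with no scaling. The Mir23b to Mir23a ratio in animal 4 was 0.582 of that in animal 3 (exact 95% interval 0.571 to 0.594). For Mir27b to Mir27a it was 0.902 (0.792 to 1.03), and for Mir24-1 to Mir24-2 it was 0.744 (0.483 to 1.14). Both of these intervals include 1, so a shift of the miR-27 or miR-24 pairs was not detectable at this depth. In 5 other pairs of related microRNA genes the same quantity spanned 0.684 for Mir181b-1 to Mir181b-2 up to 3.89 (2.34 to 6.84) for Mir181a-1 to Mir181a-2. It was 1.65 (1.57 to 1.73) for Mir221 to Mir222. By absolute log2 value, the shift of the miR-23 pair was larger than 4 of these 5. It was smaller than that of Mir181a-1 to Mir181a-2, which rests on 18 counts of Mir181a-2 in animal 4. Whether the genes of these other pairs share a mature arm was not examined. Reads that fit both genes of a pair are outside these counts, so the pairs may not be like measures.

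**Figure D3:**
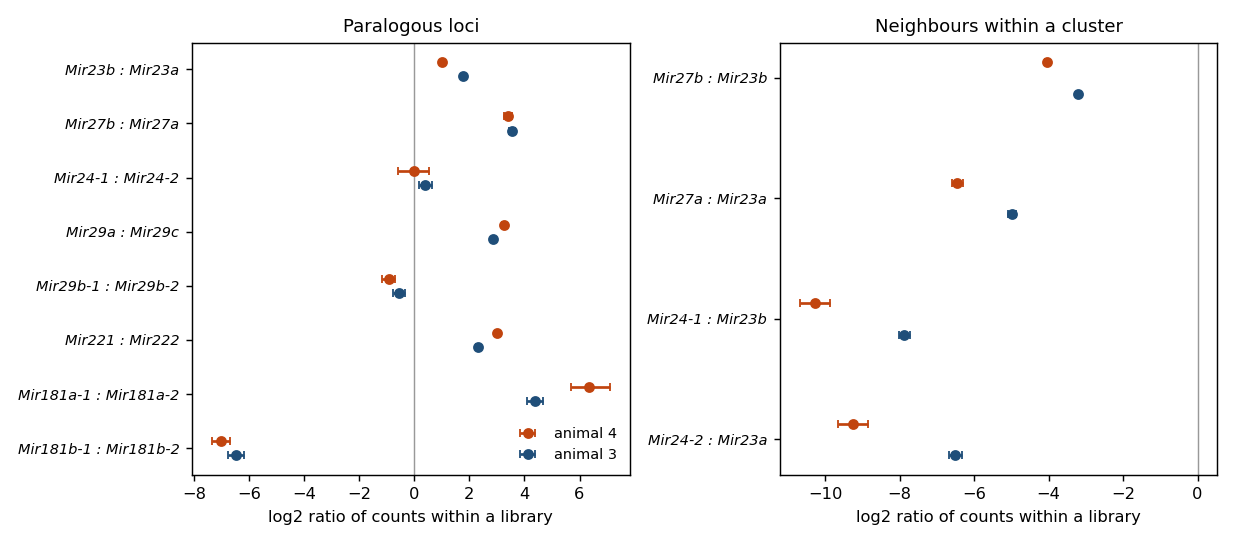
Log2 ratio of counts within a library, with exact 95% intervals, for pairs of paralogous or related genes (left panel) and for neighbours within the miR-23/27/24 clusters (right panel), animal 4 in orange above animal 3 in blue. Mir27b to Mir27a is nearly the same in both libraries (3.40 and 3.54), while the within-cluster ratios in the right panel all lie lower in animal 4.

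Between the libraries, the genes of the Mir23a cluster differed in direction, while those of the Mir23b cluster all differed in the same direction by unlike amounts. Mir23a was higher in animal 4, and the other 5 members were lower, by the exact two-sided binomial test on TMM-scaled counts with Benjamini-Hochberg adjustment over 516 genes. With 6 of 6 members called, the background matters: 57.9% of all genes tested were called. Split by direction, 27.5% of genes were called higher and 30.4% lower in animal 4. With a 2-fold difference also required, 3 of the 6 members were called, all lower, against 19.4% of genes in either direction, 7.75% higher and 11.6% lower. Each member had more than 100 counts over both libraries together. Of the 309 genes with 100 or more, 81.9% were called, 39.2% higher and 42.7% lower. With the 2-fold limit these were 17.5%, 5.83% higher and 11.7% lower. The median log2 ratio, animal 4 over animal 3, was -1.06 over the 6 members and -0.037 over the 511 tested genes with counts in both libraries. These tests compare the libraries with each other and no condition.

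The size of the difference varied along each cluster. On the log2 scale, Mir23b differed by -0.30 (exact 95% interval -0.31 to -0.29), within the median absolute log2 ratio of 0.46 over the 309 genes with 100 or more counts. Mir27b differed by -1.14 (-1.19 to -1.08) and Mir24-1 by -2.69 (-3.13 to -2.27; adjusted p = 4.68e-54 in the exact binomial test). In the Mir23a cluster, Mir23a differed by 0.48 (0.46 to 0.50), Mir27a by -0.99 (-1.17 to -0.81; adjusted p = 4.63e-29 in the exact binomial test) and Mir24-2 by -2.26 (-2.71 to -1.84; adjusted p = 9.03e-34 in the exact binomial test). In both clusters the miR-23 gene was thus the highest of the 3 in log2 ratio and the miR-24 gene the lowest. By absolute log2 ratio among the 309 genes, Mir24-1 had rank 8 and Mir24-2 rank 13. The miR-24 values rest on reads assigned to 1 locus, without those of the shared 3p arm, and give no change of miR-24 as a whole.

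The same differences can be given relative to the miR-23 gene of each cluster, which needs no scaling between the libraries and adds no independent evidence of the order. The count of Mir27b per Mir23b in animal 4 was 0.560 of that in animal 3 (0.538 to 0.582), and that of Mir27a per Mir23a was 0.361 (0.318 to 0.409). For Mir24-1 per Mir23b it was 0.191 (0.140 to 0.255), and for Mir24-2 per Mir23a 0.149 (0.109 to 0.200). None of these 4 intervals includes 1. Summed over both loci, miR-23 differed by -0.083 between the libraries on the log2 scale, with 24435 CPM in animal 4 and 26618 CPM in animal 3. For miR-27 the sum differed by -1.13, with 1074 CPM in animal 4 and 2410 CPM in animal 3.

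**Figure D4:**
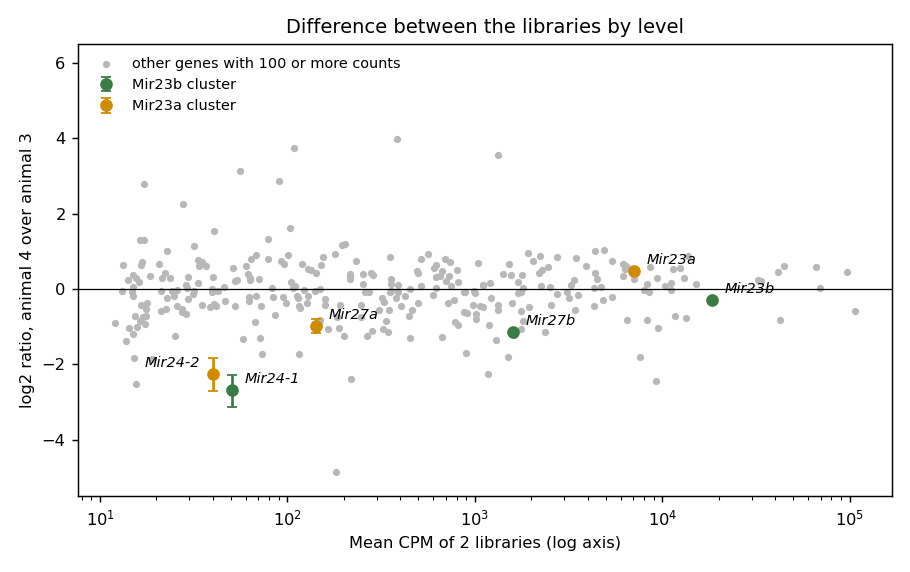
Log2 ratio of animal 4 over animal 3 (vertical axis) against mean CPM (horizontal, log axis) for genes with 100 or more counts, with the Mir23b cluster in green, the Mir23a cluster in yellow and exact 95% intervals as bars. Mir24-1 at -2.69 and Mir24-2 at -2.26 lie among the lowest points, Mir27b and Mir27a near -1, and Mir23a alone of the 6 lies above 0. The miR-24 points leave out reads that fit both loci.

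Reads on the strand opposite the miR-24 hairpins were counted at the Mir3074 genes. The mature arm annotated at both of these is shown because it overlaps the complement of miR-24-3p.
miR-3074-5p: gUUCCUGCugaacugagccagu

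Mir3074-1 had 44 counts in animal 4 and 2 in animal 3, against 53 and 375 counts on the Mir24-1 strand. Opposite-strand reads were thus 45.4% (35.2 to 55.8) of the counts at this locus in animal 4 and 0.531% (0.0643 to 1.90) in animal 3. The log2 ratio of Mir3074-1, animal 4 over animal 3, was 4.59 (exact 95% interval 2.65 to 7.68; adjusted p = 7.55e-12 in the exact binomial test), on only 2 counts in animal 3. Mir3074-2 had 0 counts in animal 4 and 3 in animal 3. The limit that a count of 0 allows, taken as 3 counts, is 0.748 CPM in animal 4. The miR-3074-5p sequence is the same at both loci, so a read of the whole arm fits both equally. The counts and shares above therefore rest on reads assigned to 1 locus. Among these, opposite-strand reads of animal 4 were seen at the chromosome 13 locus and not at the chromosome 8 locus. Without strand, reads at both miR-24 loci are ambiguous, and the unstranded column holds 0 for Mir24-1 and Mir24-2 in both libraries.

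The seeds tie the clusters to other microRNA genes. miR-128-3p, of a neuronal microRNA, has the miR-27 seed shifted by 1 base.
miR-128-3p: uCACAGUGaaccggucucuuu

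Its genes Mir128-1 and Mir128-2 had 6096 and 1454 CPM in animal 4 and 12978 and 3307 CPM in animal 3. Together they gave 7549 CPM in animal 4 and 16284 CPM in animal 3, more than the 1074 and 2410 CPM of the miR-27 genes. Both were called lower in animal 4, with log2 ratios of -1.05 and -1.15 beside -1.14 for Mir27b and -0.99 for Mir27a. The miR-128-3p sequence is the same at Mir128-1 and Mir128-2, so a read of the whole arm fits both equally. The values of Mir128-1 and Mir128-2 therefore rest on reads assigned to 1 locus and give no level of miR-128-3p. The seed of miR-24-3p occurs in the mature microRNAs of 4 further genes, Mir5124b, Mir6369, Mir6410 and Mir6413, and all 4 had 0 counts in both libraries.

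By likeness of log2 CPM over the 2 libraries, the nearest of 308 other genes with 100 or more counts was Mir433 for Mir23b (distance 0.48), Mir423 for Mir27b (0.065), Mir379 for Mir23a (0.12) and Mir340 for Mir27a (0.12). Mir24-1 and Mir24-2 were each other's nearest gene (0.40). With only 2 libraries, this likeness is a description of level and of a single difference.

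The cortex is a mixture of cells, and in bulk tissue fewer cells of a type and less RNA per cell cannot be told apart. Endothelial Mir126a had 10799 CPM in animal 4 and 11394 CPM in animal 3, a log2 ratio of -0.037 (-0.056 to -0.019). The mural and smooth muscle list, Mir143 and Mir145a, summed to 7691 CPM in animal 4 and 5178 CPM in animal 3. Mir143 was called higher and Mir145a lower. The oligodendrocyte list (3 genes) summed to 3543 CPM in animal 4 and 5098 CPM in animal 3, with 2 of 3 called lower. The microglia and leukocyte list (5 genes) summed to 2065 CPM in animal 4 and 2228 CPM in animal 3, with 2 of 5 called higher and 2 lower. The red-cell list (3 genes) summed to 794 CPM in animal 4 and 83.5 CPM in animal 3, with 2 of 3 called higher. Most of it was Mir451a, with 726 CPM in animal 4 and 47.0 CPM in animal 3, while Mir486 had 22.9 CPM in animal 4 and 26.7 CPM in animal 3 and was not called. Mir204, the choroid plexus marker, had 390 CPM in animal 4 and 456 CPM in animal 3. All genes of these 6 lists had counts in both libraries. A wider vascular list of Mir126a, Mir126b, Mir221 and Mir222 summed to 19435 CPM in animal 4 and 17652 CPM in animal 3, with Mir126b at 0 counts in both. The part of these differences in those of the miR-23/27/24 genes was not tested.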

How the data were processed

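The 2 libraries of 1 group hold short RNA of left cortex. The deposited files give raw read counts, mapped to mm10 with GENCODE M21, per the text files beside them. Molecular identifiers, trimming, counter and aligner were not given in the sources used here. Each table opens with 4 entries that name no gene (unmapped, multi-mapped, unassigned and ambiguous reads). Its 3 columns of counts were read as unstranded, own-strand and opposite-strand, and the own-strand column was used. The entries stayed out of totals and tests: unmapped reads were 20.9% of the reads in animal 4 and 16.7% in animal 3, and reads outside microRNA genes 4.39% and 4.56%. A count joins both arms of its hairpin, so mature microRNAs were not told apart.

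All 2202 identifiers matched GENCODE M21. The 516 genes with 10 or more counts, libraries summed, were compared, animal 4 over animal 3. The comparison was a two-sided exact binomial test on library sizes scaled by TMM over the same genes (R 4.3.3 with edgeR 4.0.16), adjusted by Benjamini-Hochberg and called at 0.05. With 1 group no count model with a contrast could be fitted, so a p-value here reflects counting error alone, between these libraries. Ratios of ratios are conditional odds ratios with exact intervals (SciPy 1.17.1). The test was checked on simulated Poisson counts, which hold counting error only and no variation between animals. Named were the 6 members, microRNA genes within 10 kb, seed relatives of their 3p arms, the nearest gene in level, pairs of related genes and cell type markers. Members and lists were chosen with earlier results of these data known. Sequences are from RefSeq (GRCm38.p6), whose hairpin coordinates equal those of GENCODE for all 6 members. The alternatives tried were size factors of DESeq2 1.42.0, plain totals, totals over all reads or without the most abundant gene, minimum counts of 1 and 100, unstranded counts, each library alone and levels per 100 bases of hairpin.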

Additional observations from a re-analysis of the deposited data

Results flagged for a closer look

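Reads on the strand opposite Mir24-1 came to 44 in animal 4, above the 3 counts that a count of 0 allows, and to 2 in animal 3. They are the counts of Mir3074-1, which the comparisons of the members do not use. Multi-mapped reads, which are also outside the comparisons, were 39.9% of the reads of animal 4 and 42.8% of those of animal 3. How many of them came from miR-24-3p was not tested.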

How the results depend on the processing

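No paired analysis was possible because there is 1 group. Of 120 recomputed values, 109 were labelled the same, by direction and adjusted-p call or by a move of less than the spread between the libraries. That label passes over the 2-fold limit, and counts of members that went from 3 to 4 or to 2 also carry it. For levels and shares, leaving a library out moves a mean of 2 by less than their SD whatever the values. That part of the tally is therefore no check. The ratio of Mir24-1 to Mir24-2 turned round when a library was left out: its log2 value ran from -0.027 with animal 4 alone to 0.40 with animal 3 alone, against 0.34 for the mean. Per 100 bases of hairpin the log2 ratio became 0.99 for Mir24-1 to Mir24-2 and 3.75, against 3.50, for Mir27b to Mir27a, by construction from hairpin length. All 6 members kept their call and direction under each scaling and minimum count. Under unstranded counts 4 of 6 could be tested and kept theirs, since Mir24-1 and Mir24-2 have 0 counts there. Mir27a lay next to the 2-fold limit, with log2 ratios of -0.95 (DESeq2 size factors) to -1.10 (total without the most abundant gene), so 4 members passed it with totals in place of TMM. Leaving out the most abundant gene moved the median log2 ratio of all genes to -0.15, against -0.037. Depth limits the miR-24 genes, at 53 and 54 counts in animal 4, and reads that fit both miR-24 loci cannot be assigned to either.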
